A study of Mus musculus with 12 samples.

Results

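The rows described here are the neighbours, by gene ID number, of an annotated gene with no read in any knockout liver and reads in every wild-type liver. That gene is MGP_C57BL6NJ_G0033694, called the KO-absent row below. The window held every ID numbered 33494 to 33894, which is 200 on either side of it, with at least 120 counts summed over the 12 libraries. Of 401 possible IDs, 399 had a row in the table and 231 met the minimum, 112 numbered below the KO-absent row and 118 above it, out of 42554 rows in all. The centre of the window was chosen because its counts were 0 in the knockout, so its own genotype difference is a description; the neighbours were chosen by number and total count. The rows just inside the minimum had 130, 135 and 135 counts in total, and those just outside had 106, 100 and 99.

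Liver RNA was sequenced from mice lacking NLRP6 (KO) and from wild-type mice (WT), on a normal diet (ND) or a high-fat diet (HFD), with 3 libraries per group. The groups were KO ND, WT ND, KO HFD and WT HFD. All mice ate the normal diet until 8 weeks of age, and the HFD groups then ate high-fat food during a further 12 weeks, with the ND groups kept on normal food. The study asks about NLRP6 and fat droplets in hepatocytes, and its text speaks of knockout mice with the loss checked in hepatocytes. How the knockout was made, the strain background, the sex of the mice, and whether KO and WT animals were littermates are not given in the sources used here.

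NLRP6 is a NOD-like receptor, a class of cytosolic sensors of which several assemble inflammasomes, and it is best known from the intestinal epithelium. A gene knocked out in cells of one strain and crossed into another is inherited together with the DNA on either side of it. Genes in such a flanking stretch can differ between knockout and wild-type animals through their own sequence, whatever the deleted gene does, under 1 condition or under several. A knockout made directly in the strain used for the controls has no such stretch. Neighbouring ID numbers stand in for neighbouring positions here, since no coordinates for these IDs were used, and that substitution was not tested.

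The tables used here gave a gene symbol for 0 of the IDs. The KO-absent row was therefore not identified as Nlrp6, the neighbours have no known roles to report, and liver and immune cell markers were not analysed. Total counts were 13339879 to 15933886 per library. KO HFD replicate 1 stood apart from its group, with a chi-square per degree of freedom of 181 and 103 against replicates 2 and 3, where other replicate pairs had 8.67 to 51.9. The number of window rows called in each comparison, and the number with KO and WT not overlapping on both diets, are therefore also given without it. It was also left out among the alternatives of the named rows. Its part in the levels, group means, block medians and correlations was not tested. Nothing in the labels says whether replicates are separate animals, so p-values reflect how far these samples scatter, and some of that scatter may be technical. In a bulk tissue, fewer cells of a type and less RNA per cell cannot be told apart.

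Only the centre of the window was lost in the KO. The KO-absent row had 0 counts in all 6 KO libraries, against 2030, 2358 and 2019 counts in WT ND and 2981, 2198 and 2398 counts in WT HFD. Set against 3 counts as the least a library can be said to show, the KO level was at least 728-fold lower than that of WT under ND and, under HFD, at least 873-fold lower; this bound covers counting error only. No other row of the 399, expressed or not, had 0 counts in all KO libraries and at least 1 in every WT library, and none had the reverse. The rows numbered directly beside it were not lost. The row 1 ID above had 698, 484 and 625 counts in KO ND against 605, 516 and 450 in WT ND, and the row 2 IDs below had 1018, 951 and 1051 counts in KO ND against 1182, 1148 and 1054 in WT ND. On HFD the row 1 ID above had 568, 558 and 566 counts in KO and 483, 545 and 533 in WT. The row 1 ID below was close to silent in every group, with 11 counts in total.

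The window held about the same share of high rows as the table and fewer low ones. Levels are given as CPM, counts scaled to library size by the TMM method of edgeR and not corrected for gene length. Of the 231 rows, 230 passed the filter on low counts and were tested, and 228 had at least 1 count in every library. The median level of the tested rows was 20 CPM, from 0.737 to 6630 CPM, beside a median of 14.2 CPM over all 13843 rows tested. In the window 10.9% of rows exceeded 100 CPM, beside 10.6% of all rows. In addition, 77 of the 399 IDs had no count in any library and 91 had at least 1 count but fewer than the minimum.

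One row supplied much of the signal. The row 11 IDs below the KO-absent row had 6870, 4940 and 5910 CPM in KO ND against 5430, 3270 and 4030 CPM in WT ND, and 9790, 7440 and 7580 CPM in KO HFD against 8870, 7370 and 8060 CPM in WT HFD. KO and WT values overlapped on both diets, and the row was not called between genotypes on either (edgeR quasi-likelihood adjusted p = 0.189 on ND and 0.976 on HFD). It took 23.6% to 42.2% of all counts of the window per library. The window held 1.78% ± 0.112 of counts in KO ND against 1.71% ± 0.142 in WT ND, and 1.99% ± 0.0641 in KO HFD against 1.87% ± 0.0786 in WT HFD (SD, n = 3 each). Neither difference passed a two-sided exact permutation test (p = 0.6 on ND and 0.2 on HFD), where 3 libraries against 3 allow no p below 0.1.

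The 10 expressed rows nearest to the KO-absent row, 5 on each side, showed no shared shift between genotypes. In none of the 10 did KO and WT fail to overlap on both diets in the same direction. For 9 of them the log2 fold change of KO over WT averaged over diets lay between -0.24 and 0.45 and was not called (edgeR adjusted p from 0.24 to 0.946). The row 1 ID above had a difference of 0.12 (SE 0.09) and the row 2 IDs below one of -0.08 (SE 0.08), both on the log2 scale. The row 4 IDs below and the row 5 IDs below had log2 differences of 0.24 (SE 0.10) and 0.13 (SE 0.16). A row was called where its edgeR quasi-likelihood p, adjusted by Benjamini-Hochberg over all 13843 rows, was under 0.05.

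The exception among the 10 averaged over diets was MGP_C57BL6NJ_G0033697, 3 IDs above the KO-absent row, and its difference lay on HFD. It had 228, 395 and 374 CPM in KO HFD against 170, 125 and 159 CPM in WT HFD, and 197, 185 and 179 CPM in KO ND against 172, 165 and 209 CPM in WT ND. On HFD every KO library exceeded every WT library, while on ND the groups overlapped. The log2 fold change was 1.13 (SE 0.19, edgeR adjusted p = 0.0268) on HFD and 0.04 (SE 0.19, edgeR adjusted p = 0.935) on ND. The difference between the diets was not called (log2 difference 1.09, edgeR adjusted p = 0.0687). The call on HFD was lost without KO HFD replicate 2 (0.99, edgeR adjusted p = 0.104) or KO HFD replicate 3 (1.04, edgeR adjusted p = 0.19), the 2 libraries with the highest values, and also without any 1 of the WT HFD libraries or without KO ND replicate 1 or 3 (1.01 to 1.22, edgeR adjusted p from 0.0516 to 0.126), and with the 6 HFD libraries alone (1.13, edgeR adjusted p = 0.206). Averaged over diets its log2 difference was 0.59 (SE 0.13, edgeR adjusted p = 0.0467), a call that held in 6 of 16 alternatives.

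Another of the 10 nearest rows, 5 IDs above, was called lower in KO on ND and not called on HFD. It had 271, 241 and 234 CPM in KO ND against 332, 399 and 441 CPM in WT ND (log2 fold change -0.65, SE 0.15, edgeR adjusted p = 0.0271). On HFD the groups overlapped, with 767, 647 and 759 CPM in KO and 732, 554 and 656 CPM in WT (0.16, SE 0.15, edgeR adjusted p = 0.74), and the difference between diets was not called (0.81, edgeR adjusted p = 0.0761). The call on ND was lost without replicate 2 or 3 of KO ND or of WT ND, where the log2 difference was -0.56 to -0.64 (edgeR adjusted p from 0.0799 to 0.126).

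KO and WT were first compared averaged over diets. Apart from the KO-absent row, 7 of 229 tested neighbours were called, 2 higher and 5 lower in KO. That is 3.06% of the neighbours, beside 1.55% of all rows called in either direction, 0.383% higher and 1.17% lower. The typical neighbour differed no more than the typical row: the median absolute log2 fold change was 0.16 in the window and 0.17 over all rows, and 209 of the 229 neighbours lay within 0.5 of 0. With the KO-absent row included the count was 8. It became 28, or 12.1% of the window, without KO HFD replicate 1, where 7.47% of all rows were called. It was 3 without KO ND replicate 2, WT ND replicate 2, KO HFD replicate 3 or WT HFD replicate 3. That is 1.3% of the window, beside 0.436% to 0.557% of all rows. It was 4 or 5 without KO ND replicate 1 or 3, WT ND replicate 1, KO HFD replicate 2 or WT HFD replicate 2. Here 1.73% to 2.17% of the window was called, beside 0.777% to 1.21% of all rows.

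**Figure D1:**
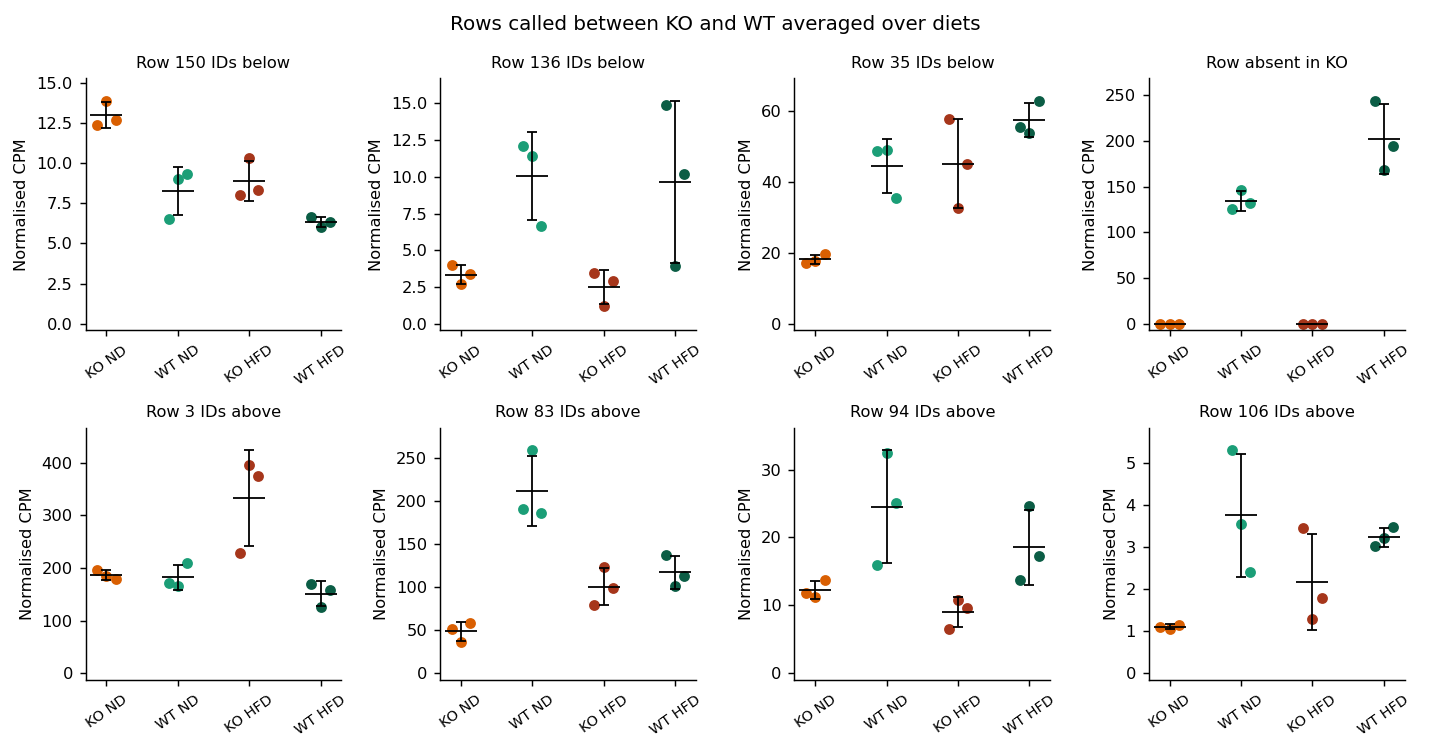
Normalised CPM (vertical axis, linear from 0, its scale differing between panels) in each library of the 8 rows called between KO and WT averaged over diets, in the order of their ID numbers; points are libraries, the horizontal bar is the group mean and the whiskers are 1 SD (n = 3). The KO-absent row is at 0 in KO and at 125 to 244 CPM in WT. Within each diet, all KO libraries of the row 136 IDs below are lower than all WT libraries.

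Of the 7 called neighbours, 3 had KO and WT values that did not overlap on either diet. The largest was MGP_C57BL6NJ_G0033558, 136 IDs below the KO-absent row. It had 3.99, 2.68 and 3.35 CPM in KO ND against 12.1, 11.4 and 6.62 CPM in WT ND, and 3.46, 1.21 and 2.87 CPM in KO HFD against 14.9, 3.90 and 10.2 CPM in WT HFD. All 6 KO libraries were below all 6 WT libraries except that KO ND replicate 1, at 3.99, was just above WT HFD replicate 2, at 3.90. The level in KO was 3.40-fold lower averaged over diets (log2 fold change -1.76, SE 0.32, edgeR adjusted p = 0.0205). Neither diet alone reached the threshold, with -1.58 on ND (edgeR adjusted p = 0.062) and -1.94 on HFD (edgeR adjusted p = 0.134), and the averaged call held in 11 of 16 alternative settings. It was lost without KO ND replicate 2 or 3, WT ND replicate 2, KO HFD replicate 3 or WT HFD replicate 3 (edgeR adjusted p from 0.0523 to 0.0699).

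The row 94 IDs above behaved alike at a higher level. It had 11.8, 11.2 and 13.8 CPM in KO ND against 15.9, 32.5 and 25.1 CPM in WT ND, and 6.50, 10.8 and 9.68 CPM in KO HFD against 13.8, 24.6 and 17.2 CPM in WT HFD. KO was lower than WT by nearly the same factor on each diet, 2.0-fold on ND and 2.05-fold on HFD. The averaged log2 fold change was -1.02 (SE 0.19, edgeR adjusted p = 0.0219), and its range over 16 alternatives was -1.13 to -0.89, called in 11. The call was lost without KO ND replicate 1 or 2, WT ND replicate 2, KO HFD replicate 3 or WT HFD replicate 3.

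The remaining neighbour of this kind was higher in KO. MGP_C57BL6NJ_G0033544, 150 IDs below, had 12.4, 13.9 and 12.7 CPM in KO ND against 6.54, 9.0 and 9.30 CPM in WT ND, and 8.02, 10.3 and 8.32 CPM in KO HFD against 6.63, 6.04 and 6.31 CPM in WT HFD. The log2 fold change was 0.57 averaged (SE 0.13, edgeR adjusted p = 0.0377), 0.65 on ND and 0.49 on HFD. The averaged call was lost in 10 of 16 alternatives, in which 1 library was left out, any but WT ND replicate 3 or KO HFD replicate 1, with an edgeR adjusted p of up to 0.115.

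Of the other called neighbours, the row 3 IDs above, described earlier, differed on HFD, and the remaining 3 had larger log2 differences on ND than on HFD. The row 83 IDs above had 51.3, 36.2 and 58.6 CPM in KO ND against 191, 259 and 186 CPM in WT ND, and 79.4, 123 and 99.5 CPM in KO HFD against 138, 101 and 113 CPM in WT HFD. The row 35 IDs below had 17.2, 17.7 and 19.6 CPM in KO ND against 48.7, 49.1 and 35.6 CPM in WT ND, and 57.9, 32.7 and 45 CPM in KO HFD against 55.7, 53.9 and 63.0 CPM in WT HFD. For both rows the genotypes were far apart on ND and overlapped on HFD. Their averaged log2 fold changes were -1.17 (SE 0.15, edgeR adjusted p = 0.00191) and -0.82 (SE 0.13, edgeR adjusted p = 0.00813), and both calls held in all 16 alternatives. MGP_C57BL6NJ_G0033800, 106 IDs above, had 1.11, 1.05 and 1.16 CPM in KO ND against 5.30, 3.54 and 2.42 CPM in WT ND, and 3.46, 1.28 and 1.79 CPM in KO HFD against 3.03, 3.21 and 3.48 CPM in WT HFD. Its averaged log2 fold change was -1.17 (SE 0.26, edgeR adjusted p = 0.0422), a call that held in 6 of 16 alternatives and was lost when any 1 library was left out other than WT ND replicate 3 or KO HFD replicate 1.

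Separation on both diets was also counted without a test. Among the 229 neighbours, 7 had KO and WT values that did not overlap on ND or on HFD with the same direction, 2 higher and 5 lower in KO. Over all rows tested, 2.09% did so, 0.766% with KO higher and 1.32% with KO lower. With the KO-absent row the count was 8; leaving out KO HFD replicate 1 gave 21, WT HFD replicate 1 gave 18 and KO HFD replicate 3 gave 13, where 6.77%, 4.61% and 2.86% of all rows were so separated. On ND alone KO and WT did not overlap in 88 of the 230 rows, 38.3% beside 31.9% of all rows, and on HFD alone in 34, 14.8% beside 12.6%. As many as 10 neighbours, 4.35% of the 230 rows, were separated on both diets in opposite directions, beside 1.94% of all rows. Of these, 8 were lower in KO on ND and higher in KO on HFD, a split not counted over all rows. Besides the 3 rows given above, the same-direction rows were at 157 and 36 IDs below and 17 and 54 IDs above, with averaged log2 fold changes of 0.33, -0.26, -0.18 and -0.15. None of these 4 was called (edgeR adjusted p from 0.11 to 0.332). The row 54 IDs above, with the smallest averaged difference of these 4, had 394, 382 and 383 CPM in KO ND against 433, 419 and 447 CPM in WT ND. The row 157 IDs below, with the largest, had 13.2, 15.7 and 12.6 CPM in KO ND against 9.87, 9.99 and 9.76 CPM in WT ND.

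**Figure D2:**
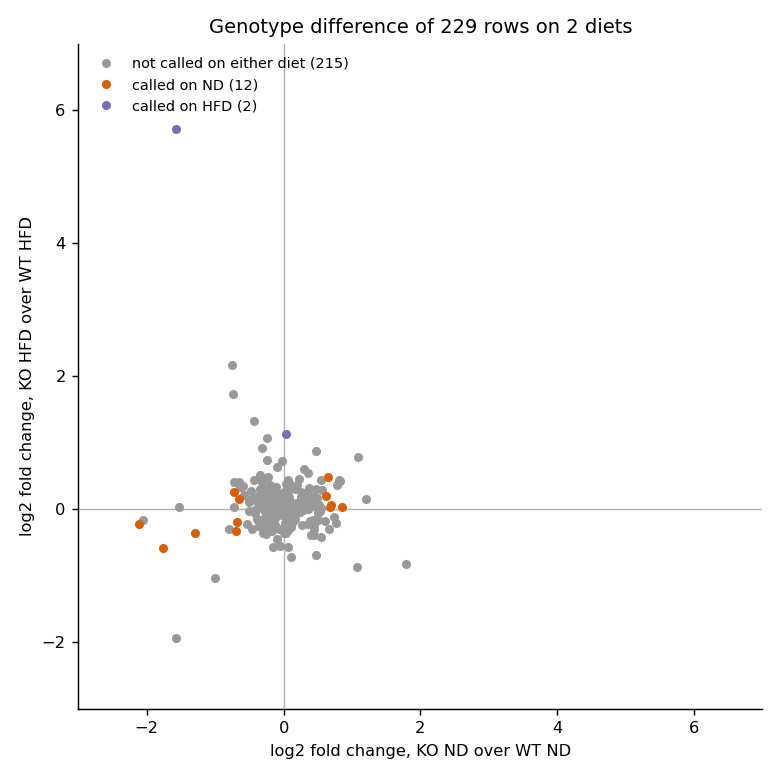
Log2 fold change of KO over WT on ND (horizontal axis) and on HFD (vertical axis) for the 229 tested neighbours of the KO-absent row, 1 point per row, coloured by the diet on which the row was called. The points form a cloud around 0 with no diagonal trend, and the row 166 IDs above stands alone at 5.72 on HFD.

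The genotype differences on the 2 diets, which share no library, were close to uncorrelated across rows. Across the 229 neighbours the log2 fold changes on ND and on HFD gave Pearson's r of -0.12 and Spearman's rho of -0.00707, beside -0.0387 and 0.00357 over 13842 rows, the KO-absent row left out. These are descriptions across rows, which share libraries and are not independent. Of the 230 tested rows 119 had the same sign on both diets, 51.7%, beside 50.5% of all rows.

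On ND alone, 12 of the 229 neighbours were called, 5 higher and 7 lower in KO. This is 5.24% of the neighbours, beside 4.81% of all rows called in either direction, 1.96% higher and 2.85% lower. The median absolute log2 fold change was 0.27 in the window and 0.25 over all rows. Among the called neighbours the largest difference was that of the row 83 IDs above, 4.35-fold lower in KO, a log2 difference of -2.12 (SE 0.21; adjusted p = 0.000664 in edgeR), followed by the rows 106 IDs above (-1.76) and 35 IDs below (-1.29). These 3 rows and the rows at 5, 37 and 101 IDs above and 63 IDs below made up the 7 lower ones. The higher ones were at 150 and 148 IDs below and at 155, 156 and 173 IDs above, with log2 fold changes of 0.62 to 0.86.

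Of the 12 rows called on ND, 10 kept the sign of their difference on HFD, but none was called there. The same share among all rows called on ND was not counted, so the 10 are a description. The 2 adjacent rows 155 and 156 IDs above show the pattern. The row 155 IDs above had 15.4, 23.0 and 20.9 CPM in KO ND against 12.2, 12.0 and 12.4 CPM in WT ND, and 8.18, 11.4 and 12.1 CPM in KO HFD against 8.84, 11.5 and 9.95 CPM in WT HFD. The row 156 IDs above had 10.7, 14.8 and 14.7 CPM in KO ND against 5.86, 8.75 and 7.53 CPM in WT ND, and 12.5, 8.36 and 9.97 CPM in KO HFD against 11.3, 7.72 and 10.8 CPM in WT HFD. In both, KO exceeded WT in every ND library and the genotypes overlapped on HFD. The number called on ND, KO-absent row included, was 13. It was 3 without KO ND replicate 2 or without WT ND replicate 2, 1.3% of the window beside 0.648% and 0.838% of all rows. It was 30 without KO HFD replicate 1, 13% of the window beside 8.28% of all rows. It was 4 to 7 without KO ND replicate 1 or 3, WT ND replicate 3, KO HFD replicate 3 or WT HFD replicate 3. Those are 1.73% to 3.04% of the window, beside 1.8% to 3.23% of all rows. Without KO HFD replicate 2 it was 21, 9.13% beside 5.62% of all rows. Only the rows 83 IDs above and 35 IDs below, beside the KO-absent row, were called on ND in all 17 alternatives.

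On HFD, 2 of the 229 neighbours were called, both higher in KO, at 3 and at 166 IDs above. This is 0.873%, beside 0.246% of all rows called in either direction, 0.0867% higher and 0.159% lower. The row 166 IDs above reached the minimum of 120 counts only through KO HFD, which held 242 of its 282 counts, with 40 in the other 9 libraries. Its difference on HFD is therefore a description, and the 2 calls are not read against the share of all rows. At an unadjusted p under 0.05, 24 of the 230 rows passed, 10.4%, beside 11% of all rows. The row 166 IDs above had 1.43, 9.95 and 6.67 CPM in KO HFD against 0.0819, 0.0765 and 0.162 CPM in WT HFD, and 0.234, 0.327 and 0 CPM in KO ND against 0.678, 0.683 and 0.327 CPM in WT ND. KO was above WT on HFD without overlap and below it on ND, where the closest KO and WT libraries were equal to the digits given. The log2 fold change on HFD was 5.72 (SE 0.87), which rests on very few reads in WT HFD; the call was lost without KO HFD replicate 2 or 3, without any 1 of the WT HFD libraries, or with the 6 HFD libraries alone. With the KO-absent row, 3 rows were called on HFD. Without KO HFD replicate 1 this became 17, 12 higher and 5 lower, 7.36% of the window beside 5.79% of all rows. It became 1, the KO-absent row itself, without KO HFD replicate 2, KO HFD replicate 3, WT HFD replicate 1 or WT HFD replicate 3. Of all rows, 0.0493% to 0.169% were then called.

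**Figure D3:**
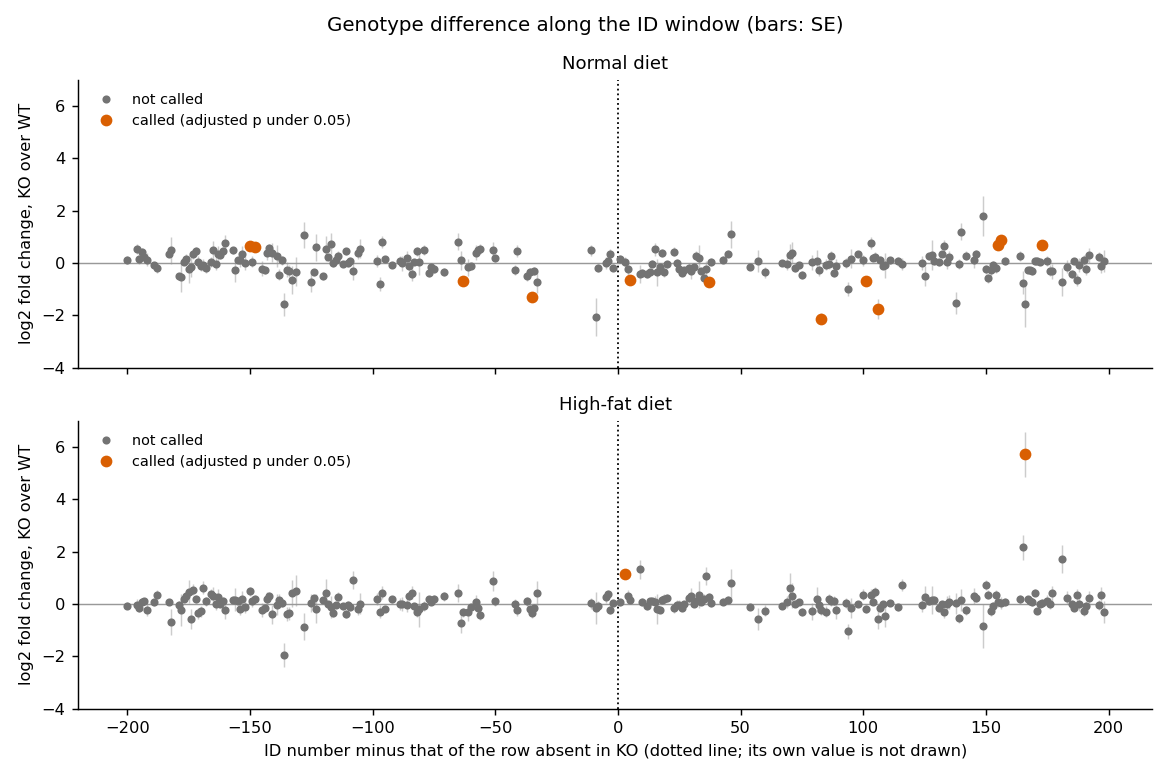
Log2 fold change of KO over WT (vertical axis) against the distance in ID number from the KO-absent row (horizontal axis, dotted line at 0) on ND (upper panel) and HFD (lower panel) for 229 rows; bars are 1 SE and coloured points are rows called at an adjusted p under 0.05. Called rows are scattered on both sides of the dotted line, and most rows close to it lie near 0.

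Called rows lay on both sides of the KO-absent row and in most blocks of the window. Within 50 IDs of it, 2 of 48 tested neighbours were called averaged over diets (4.17%, beside 1.55% of all rows) and 3 on ND (6.25%, beside 4.81% of all rows); whether these shares differ from those farther out was not tested. These are the rows at 3 IDs above and 35 IDs below and, on ND, those at 35 IDs below and at 5 and 37 IDs above. In 8 blocks of 50 IDs the number called on ND was 0 to 3, and it was highest, at 3 of 32 rows, in the block 151 to 200 IDs above. The median absolute log2 fold change on ND was 0.34 in the 15 rows 1 to 50 IDs below and 0.29 in the 33 rows 1 to 50 IDs above, beside 0.17 to 0.37 in the other blocks. On HFD the block medians were 0.16 to 0.20.

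The interaction asks whether a genotype difference depends on the diet. Of the 230 rows, 2 were called, both with a higher response to the diet in KO, 0.870% beside 1.21% of all rows called in either direction, 0.766% higher and 0.441% lower. The row 83 IDs above rose in KO on HFD over ND by 1.05 on the log2 scale (edgeR adjusted p = 0.00137) and fell in WT by 0.86 (edgeR adjusted p = 0.00528), a log2 difference of 1.90 (edgeR adjusted p = 0.0138). Its level averaged 101 ± 21.9 CPM in the KO HFD libraries and 117 ± 18.7 CPM in the WT HFD libraries, beside 48.7 ± 11.4 CPM in the KO ND libraries and 212 ± 40.6 CPM in the WT ND libraries (SD, n = 3 each). The genotypes were thus close on HFD and wide apart on ND. Without WT HFD replicate 3 the edgeR adjusted p was 0.05, at the threshold. The other was the row 166 IDs above, which entered the window through its KO HFD counts. Its values are therefore a description, and the 2 calls are not read against the share of all rows. For this row the log2 change on HFD over ND was 4.96 in KO and -2.32 in WT, a difference of 7.28. Its call was lost without WT ND replicate 2, KO HFD replicate 3, WT HFD replicate 2 or WT HFD replicate 3. Without KO HFD replicate 1, 19 rows were called, 8.23% beside 6.64% of all rows, and without WT ND replicate 1, 5, or 2.16% beside 1.33% of all rows. A single row was called without WT ND replicate 2, KO HFD replicate 3 or WT HFD replicate 2. Of all rows, 0.127% to 0.549% were then called. Without WT HFD replicate 3, 0 were called by edgeR, beside 0.0774% of all rows, and 36 had an unadjusted p under 0.05. In the fit of all libraries 44 had an unadjusted p under 0.05, 19.1% beside 16.5% of all rows. With all libraries DESeq2 called 14, 6.09% beside 4.74% of all rows.

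**Figure D4:**
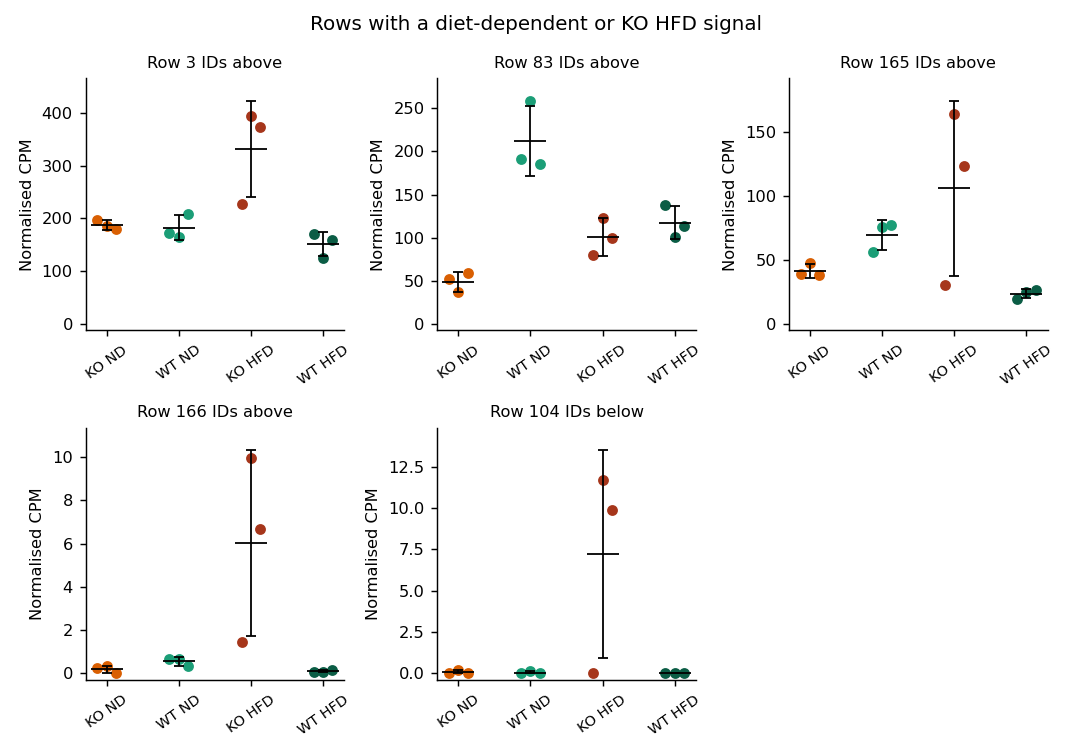
Normalised CPM (vertical axis, linear from 0, its scale differing between panels) in each library of 5 rows with values that depended on the diet or were high in some KO HFD libraries; points are libraries, the horizontal bar is the group mean and the whiskers are 1 SD, cut at 0 (n = 3). In all 5 rows the left point of KO HFD, replicate 1, is the lowest of its group.

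Several rows of the window were higher in KO HFD replicates 2 and 3 than in replicate 1; apart from the rows at 3 and 166 IDs above, they were picked with their values in view. The row 165 IDs above, next to the called row 166 IDs above, had 30.4, 164 and 123 CPM in KO HFD against 19.5, 24.6 and 26.4 CPM in WT HFD. On ND it had 38.6, 47.2 and 37.8 CPM in KO against 55.7, 75.4 and 77.2 CPM in WT, so that, as in its neighbour, KO was below WT on ND and above it on HFD. The diet response was called upwards in KO (1.36, edgeR adjusted p = 0.0339) and downwards in WT (-1.56, edgeR adjusted p = 0.0227), while their difference was not called (2.93, edgeR adjusted p = 0.0669). The KO response was not called when any 1 KO ND library was left out, without KO HFD replicate 2 or 3 or without the low-count filter (0.89 to 1.47, edgeR adjusted p from 0.0634 to 0.14), nor the WT response without WT ND replicate 2 or 3, any 1 of the WT HFD libraries or the filter (-1.66 to -1.44, edgeR adjusted p from 0.0503 to 0.0773). The row 181 IDs above had 34.6, 269 and 198 CPM in KO HFD against 43.5, 55.1 and 52.8 CPM in WT HFD, and 36.3, 35.5 and 38.9 CPM in KO ND against 61.9, 61.8 and 60.8 CPM in WT ND. Here KO HFD replicate 1 was below all WT HFD libraries and the other KO HFD libraries were far above them, and the genotype difference was not called (1.73, edgeR adjusted p = 0.276).

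The single row left out by the filter on low counts was also high in KO HFD replicates 2 and 3 and not in replicate 1. It lies 104 IDs below the KO-absent row and had 0, 157 and 145 counts in KO HFD against 0, 0 and 0 counts in WT HFD, and 0, 3 and 0 counts in KO ND against 0, 2 and 0 counts in WT ND. Its counts thus came almost wholly from 2 libraries. One row was high in a single ND library instead: 149 IDs above, KO ND had 18.8, 137 and 11.8 CPM against 18.9, 13.5 and 15.7 CPM in WT ND. On HFD it fell by 3.36 on the log2 scale in KO with all libraries (edgeR adjusted p = 0.0104), and without KO ND replicate 2 it fell by 1.5 (edgeR adjusted p = 0.00079).

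The diet changed far more of these rows than the genotype did, and the rule did not use the diet. In KO the HFD libraries were higher than the ND libraries in 70 called rows and lower in 41, 48.3% of 230, beside 44.8% of all rows called in either direction. In WT, 54 were higher and 29 lower, 36.1%, beside 41% of all rows. Of all rows tested, 22.6% were higher and 22.1% lower on HFD in KO, and 19.5% were higher and 21.5% lower in WT. Without KO HFD replicate 1 the counts were 96 in KO, 41.6% beside 38.8% of all rows, and 98 in WT, 42.4% beside 44.2% of all rows. The KO and WT responses share no library; 39 rows rose in both and 19 fell in both, 17.0% and 8.26% of the window, beside 13.4% and 14.6% of all rows. The rows 83 and 165 IDs above rose in KO and fell in WT, 0.870%, beside 0.376% of all rows with opposite calls. A further 51 rows were called in KO only, 22.2% beside 16.4% of all rows, and 23 in WT only, 10% beside 12.6% of all rows, which does not show that those responses differ. Across the 229 neighbours Pearson's r between the responses was 0.511 and Spearman's rho 0.652, beside 0.667 and 0.701 over 13842 rows, as descriptions across rows. Within 50 IDs, 16 of the 48 neighbours were higher and 4 lower on HFD in WT.

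**Figure D5:**
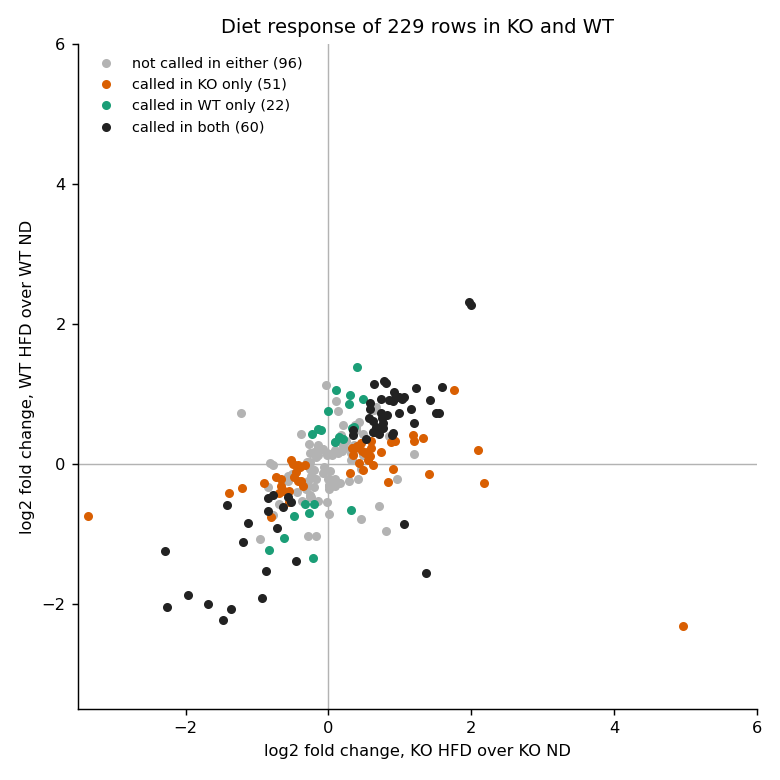
Log2 fold change of HFD over ND in KO (horizontal axis) and in WT (vertical axis) for the 229 tested neighbours of the KO-absent row, 1 point per row, coloured by the genotype in which the row was called. Most rows called in both genotypes lie along the diagonal; the 2 in the lower right quadrant are the rows 83 and 165 IDs above.

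The rows with the largest diet response in WT among those called alike in both genotypes were picked with their values in view. The row 109 IDs above had 36.5, 7.16 and 20.7 CPM in KO HFD against 5.16, 6.21 and 5.18 CPM in KO ND, and 41.3, 24.9 and 21.4 CPM in WT HFD against 6.72, 5.09 and 5.83 CPM in WT ND. The row 139 IDs below had 37.0, 9.49 and 27.1 CPM in KO HFD against 6.97, 7.13 and 4.39 CPM in KO ND, and 30.4, 17.3 and 27.0 CPM in WT HFD against 5.74, 4.03 and 5.70 CPM in WT ND. Every HFD library was above every ND library of its genotype in both rows, and KO HFD replicate 2 was the lowest of its group. Their log2 fold changes were 1.96 and 1.99 in KO (edgeR adjusted p = 0.00639 and 0.00283) and 2.31 and 2.27 in WT (edgeR adjusted p = 0.00295 and 0.00174).

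Among the falls, the row 116 IDs above had 11.1, 25.5 and 24.2 CPM in KO HFD against 56.5, 58.0 and 55.0 CPM in KO ND, and 13.8, 11 and 12.1 CPM in WT HFD against 67.0, 48.8 and 57.4 CPM in WT ND. The row 169 IDs below had 4.98, 10.2 and 8.89 CPM in KO HFD against 21.2, 17.1 and 23.5 CPM in KO ND, and 3.93, 6.20 and 5.42 CPM in WT HFD against 24.5, 18.3 and 23.1 CPM in WT ND. Both fell without overlap in each genotype. Their log2 fold changes were -1.47 and -1.36 in KO (edgeR adjusted p = 0.000362 and 0.000628) and -2.23 and -2.08 in WT (edgeR adjusted p = 4.43e-05 and 6.79e-05), and the difference between the genotypes was not called for either (edgeR adjusted p = 0.282 and 0.313). Within WT the KO-absent row itself was higher on HFD, with 202 ± 38.6 CPM in WT HFD against 135 ± 10.7 CPM in WT ND (SD, n = 3 each). The difference on the log2 scale was 0.59 (SE 0.16), and it was called (edgeR adjusted p = 0.0139).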

How the data were processed

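The authors deposited raw read counts per gene for 12 liver libraries, with no normalisation. RNA was extracted with Trizol and libraries made with the NEBNext Ultra RNA kit, per the labels' protocols. HISAT2 2.0.5, featureCounts 1.5.0-p3 and the build mm39 are named in the submitters' processing notes. The IDs belong to a C57BL/6NJ strain annotation, which is not that of mm39, so no coordinates or sequences are given. The kit does not mark strand, and how reads shared by several genes were counted is not recorded, so overlapping genes, antisense genes and near-identical families are uncertain.

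Counts were filtered with filterByExpr, scaled by TMM and tested by quasi-likelihood in edgeR 4.0.16 under R 4.3.3, with robust dispersions, in 1 model with 4 group means, with Benjamini-Hochberg adjustment over 13843 rows. Steps were tested on simulated data. Alternatives were size factors as in DESeq2, no filter, each library left out, narrower windows, a total of 1200 counts, DESeq2 1.42.0, the replicate number as a block and each diet alone. Named were the KO-absent row, the nearest 5 tested rows on each side and all rows called between KO and WT or in the interaction. Some further rows were picked with their values in view. Only 5 are printed by ID, the others by distance. The members and lists were chosen with earlier results of these data known. The chi-square between replicates found no pair of libraries as alike as sampling noise alone would make them.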

Additional observations from a re-analysis of the deposited data

Results flagged for a closer look

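The genotype difference of the row 83 IDs above the KO-absent row depended on the diet by the interaction term of edgeR, with a log2 difference of 1.90 (HFD minus ND, KO over WT; adjusted p = 0.0138). The adjusted p ran from 2.16e-06 to 0.05 over 16 alternatives, of which 15 called it. The row 166 IDs above had a log2 difference of 7.28 in the same term, called in 12 of 16 alternatives. It entered the window only through KO HFD, which held 242 of its 282 counts, so this value and these calls are a description. The row 104 IDs below entered no test because too few libraries had counts to pass the filter. It had 157 counts in KO HFD replicate 2 and 145 in KO HFD replicate 3, against 0 in every WT HFD library. This row, too, entered the window only through KO HFD, so these counts are a description.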

How the results depend on the processing

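Counts here include the KO-absent row. With DESeq2, 18 window rows were called averaged over diets (7.83% beside 4.57% of all rows), 32 on ND (13.9% beside 9.48%), 7 on HFD (3.04% beside 1.89%) and 14 in the interaction (6.09% beside 4.74%); the cause was not tested. Leaving out 1 library gave 3 to 28 averaged, 3 to 30 on ND, 1 to 17 on HFD, 0 to 19 in the interaction, 60 to 98 for the diet in WT, 77 to 115 for the diet in KO and 8 to 21 rows separated alike on both diets, and a median absolute log2 fold change of 0.15 to 0.18. The highest count came without KO HFD replicate 1 in every one of these but the diet in KO. Of all rows, 0.436% to 7.47% were then called averaged, 0.648% to 8.28% on ND and 0.0493% to 5.79% on HFD. The shares were 0.0774% to 6.64% in the interaction, 30.8% to 44.2% for the diet in WT and 35.6% to 45% in KO. For rows separated alike the share was 2.45% to 6.77%. Narrower windows hold fewer rows. With 100 IDs either side, 5 were called averaged (5% beside 1.55% of all rows) and 6 on ND (6% beside 4.81%). In the interaction 1 was called (1% beside 1.21%). For the diet, 46 were called in WT (46% beside 41%) and 51 in KO (51% beside 44.8%). Separated alike were 5 (5% beside 2.09%). With 50 IDs, 3 were called averaged (6.12%), 4 on ND (8.16%) and 0 in the interaction. In the interaction 12 had an unadjusted p under 0.05, beside 16.5% of all rows. For the diet, 21 were called in WT (42.9%) and 26 in KO (53.1%), and 3 were separated alike (6.12%). The shares of all rows called or separated are as for 100 IDs. The KO-absent row, chosen for its 0 counts in KO, is in each count averaged, on ND and separated alike. It weighs more in a window of fewer rows. Without it, 2 of 48 rows within 50 IDs were called averaged (4.17%) and 3 on ND (6.25%). Without the low-count filter the interaction count was 8 (3.46% beside 1% of all rows). With a total of 1200 counts, which removes rows, it was 1 (0.602% beside 1.21%). Fits of 1 diet alone gave 27 on ND (11.8% beside 7.12% of all rows) and 1 on HFD (0.444% beside 0.0622%). The 1 on HFD was the KO-absent row itself, chosen for its 0 counts in KO, so that share is not read against all rows. With the replicate block, 21 were called on ND (9.13% beside 6.44%) and 4 in the interaction (1.74% beside 1.43%). The replicate numbers are not known to pair samples: same-numbered KO and WT libraries correlated at 0.0118 to 0.246 in their deviations from group means, and not every library correlated best with its own number. Among the named rows, no called difference changed direction in any alternative run for it. Among rows not called, with 1 library left out the averaged difference of the row 3 IDs below ran from -0.02 to 0.15 and that of the row 4 IDs above from -0.06 to 0.13, crossing 0 at -0.01 and -0.02 and at -0.03, -0.05 and -0.06. Depth limits the rows under 1 CPM, such as the row 166 IDs above in WT HFD.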
